A study of Rattus norvegicus with 6 samples.

Results

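Bile acids are made from cholesterol in hepatocytes and are the main route by which the body disposes of cholesterol. In the classic pathway the P450 enzyme Cyp7a1 adds a hydroxyl group to the sterol ring and sets the rate, and Cyp8b1 adds a further hydroxyl group that steers the product towards cholic acid. In the alternative pathway the mitochondrial enzyme Cyp27a1 begins on the side chain and Cyp7b1 follows on the ring. Hsd3b7 and Akr1d1 then modify the ring in both pathways, Amacr turns the side chain intermediates into the form that peroxisomes can shorten, and Slc27a5 and Baat activate the bile acids and join them to taurine or glycine. In rat the Cyp7a1 transcript cycles over the day and is repressed by returning bile acids.

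The levels of these 9 enzymes' transcripts were read in rat liver, and 8 of the 9 were measured among 9627 named genes. They had been listed by gene symbol, and each was represented by 1 array probe matched through its RefSeq transcript. Cyp7b1 was not analysed here, so Cyp27a1 alone stood for the alternative pathway. Values set against Cyp27a1 therefore describe that enzyme and not the alternative pathway as a whole. The animals were Sprague Dawley males, all kept on a 60% high-fat diet, with liver taken at 9 weeks, and each liver sample gave 1 NimbleGen array in 1 colour. The tea group comprised 3 arrays from rats given, into the stomach, dark tea that the fungus Eurotium cristatum (CGMCC No.8730) had fermented. The control group comprised 3 arrays from rats given distilled water on the same diet. The high-fat diet was thus common to both groups, and the normal diet arm of the study was not analysed here. Nothing in the labels says that replicates were separate animals. The p-values therefore reflect only how far these samples spread, and part of that spread may be technical. In whole liver, fewer cells of a type and less RNA per cell cannot be told apart.

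Levels are log2 intensities of the values deposited after RMA, a method that makes arrays alike in their overall distribution, and a difference of 1 is a factor of 2. Levels of different genes come from different probes and are not set against each other. The arrays had median intensities of 87.1 to 95.9. The 8 measured markers of hepatocytes, albumin among them, summed to intensities of 171385 to 195558 in tea livers and 186274 to 199036 in control livers. Sums for the 5 measured cholangiocyte markers were 509 to 771 in tea livers and 555 to 698 in control livers. In either direction, 10.4% of single probes did not overlap between the groups. Of 10 marker lists, 3 had sums that did not overlap. They were lymphocyte markers (2 of 4 measured, 534 to 1254 in tea livers and 377 to 438 in control livers), periportal hepatocyte markers (6 of 6, 31973 to 34252 in tea livers and 26523 to 31240 in control livers) and pancreatic acinar markers (4 of 4, 190 to 201 in tea livers and 241 to 258 in control livers). The lymphocyte sum was carried by Gzmb, a cytotoxic granule protease, with a difference of 1.29 ± 0.36, while the B cell gene Cd79b differed by -0.34 ± 0.39. Among the acinar markers Amy2a3 differed most, by -0.70 ± 0.35, and Prss1, Cela1 and Cpa1 lay near the level of the random control probe given below. The part of these lists in the enzyme values was not tested. Control replicate 1 stood apart, with Pearson correlations over all probes of 0.884 to 0.899 with the other arrays, against 0.945 to 0.972 among the remaining 5. It was the lowest of the 6 arrays for 28.0% of named genes and the highest for 26.7%. Results that rest on it are given with and without it. Random control probe levels were 5.06, 5.10 and 5.15 in tea replicates 1, 2 and 3, and 5.40, 5.10 and 5.05 in control replicates 1, 2 and 3. Every enzyme value lay above these, between 7.35 and 13.46.

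No enzyme of the pathway passed the correction over all 26419 probes (limma, Benjamini-Hochberg), where 1 probe or 0.00379% passed. The adjusted p of the 8 enzymes lay between 0.949 and 0.966. At an unadjusted p under 0.05, limma took 1 of the 8, Cyp7a1, where 4.23% of all probes were taken, and a test with each probe's own variance took 0. The groups overlapped for all 8, where 10.4% of all probes did not overlap in either direction. The mean level was higher with tea for 5 and lower for 3, where 49.7% of all probes were higher. The median log2 difference over the 8 was 0.18, beside -0.015 over all named genes. Without control replicate 1, 2 were higher and 6 lower, and the median was -0.17. For a single gene the smallest two-sided p of the exact permutation test with 3 against 3 arrays is 0.1, and the enzymes gave 0.2 to 0.9.

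**Figure D1:**
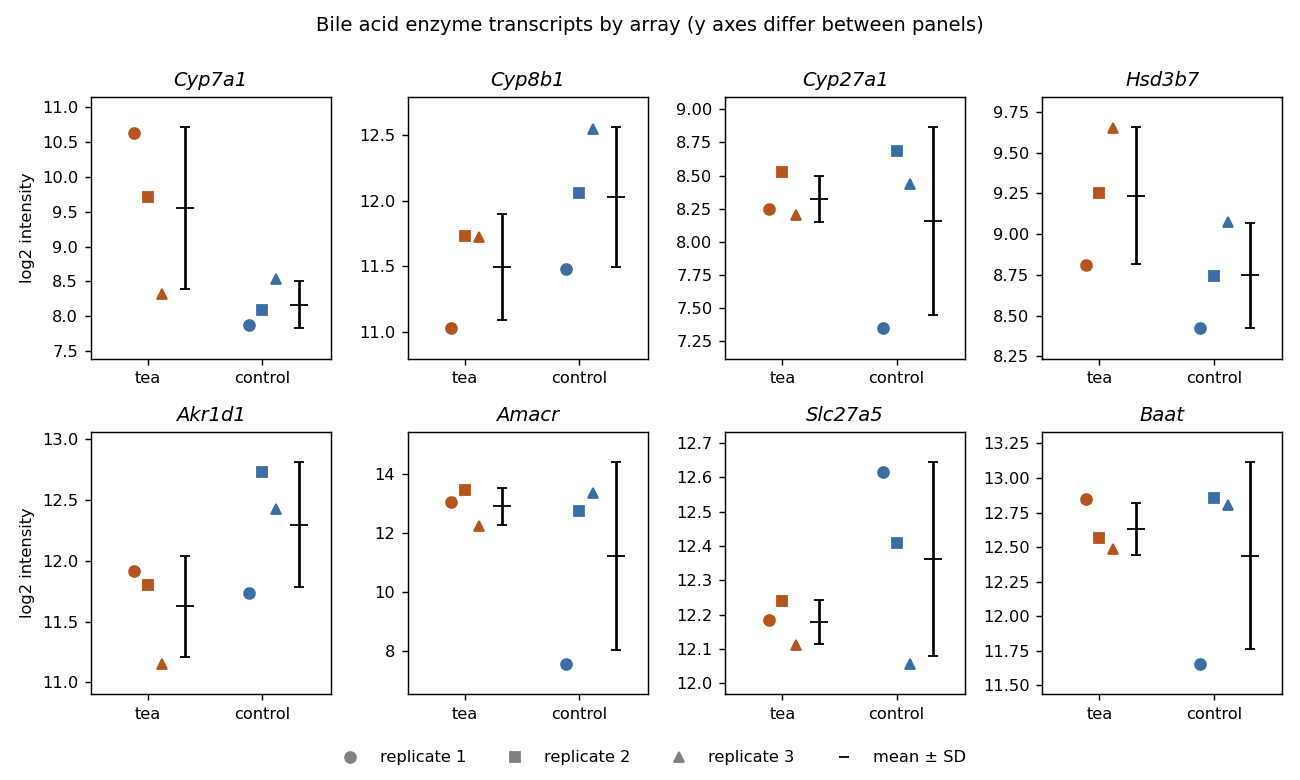
Log2 intensity of the 8 measured enzymes in each array, tea at left and control at right, with a symbol for each replicate number and the mean ± SD (n = 3) beside the points. Tea and control points overlap in every panel, Cyp7a1 spreads most within the tea group, and control replicate 1 lies far below the other arrays for Amacr at 7.56.

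Cyp7a1, the rate-setting enzyme of the classic pathway, had levels of 10.63, 9.71 and 8.32 in tea livers, against 7.87, 8.09 and 8.54 in control livers. Tea replicates 1 and 2 lay above every control, and tea replicate 3 lay below control replicate 3. The highest tea liver was 4.97-fold above the lowest tea liver, while the controls spanned 1.58-fold. The difference of the means was 1.38 ± 0.51 (SE, 95% interval 0.24 to 2.53), a fold of 2.61 with an interval from 1.18 to 5.76. The limma adjusted p over all probes was 0.949. The pooled SD within groups was 0.86, larger than that of 93.4% of named genes, whose median was 0.41. Without tea replicate 1 the difference was 0.85, and without control replicate 1 it was 1.24 ± 0.50.

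Cyp8b1, the sterol 12-alpha-hydroxylase of the classic pathway, was on average lower with tea. Its levels were 11.03, 11.73 and 11.72 in tea livers, against 11.48, 12.06 and 12.55 in control livers. All 3 tea livers lay below control replicates 2 and 3, and control replicate 1 lay among the tea livers. The difference was -0.54 ± 0.37 (SE, 95% interval -1.35 to 0.28; limma, adjusted p = 0.949). Without control replicate 1 it was -0.81 ± 0.34, the groups did not overlap, and the adjusted p was 0.853. Without control replicate 3 it was -0.28 and without tea replicate 1 it was -0.30.

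The enzymes of the classic pathway thus had mean differences of opposite sign. To compare them within an array, each gene was centred on its control mean. Cyp7a1 minus Cyp8b1 was then 3.47, 1.84 and 0.46 in tea livers, against 0.26, -0.11 and -0.15 in control livers. All tea livers lay above all controls in this quantity, although tea replicate 3 was close to control replicate 1. The mean difference was 1.92, and it lay between 1.15 and 2.65 when each array was left out in turn. This pair was chosen after its values were seen and was not tested. The same subtraction of any other named gene from Cyp7a1 left the tea livers above the controls for 29.3% of 9626 genes, so that non-overlap is not particular to Cyp8b1.

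Cyp27a1, the sterol 27-hydroxylase with which the alternative pathway begins, had levels of 8.25, 8.52 and 8.20 in tea livers, against 7.35, 8.68 and 8.44 in control livers. The tea livers lay within 1.25-fold of each other, and control replicate 1 lay below all other arrays. The difference was 0.17 ± 0.38 (SE, 95% interval -0.68 to 1.01; limma, adjusted p = 0.966). Without control replicate 1 the sign turned, with -0.24 ± 0.31, and without tea replicate 2 the difference was 0.068.

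Set against Cyp27a1, the only enzyme of the alternative pathway measured, the 2 classic enzymes showed no common shift. The mean of Cyp7a1 and Cyp8b1 minus Cyp27a1, each centred on its control mean, was 0.64, 0.25 and -0.13 in tea livers, against 0.39, -0.55 and 0.16 in control livers. The groups overlapped, and the mean difference of 0.26 was smaller than the SD of 0.38 within tea and of 0.49 within control (n = 3 each). It was -0.020 without control replicate 2. Taken singly, Cyp7a1 minus Cyp27a1 was 2.37, 1.18 and 0.10 in tea livers, against 0.51, -0.60 and 0.089 in control livers. Cyp8b1 minus Cyp27a1 was -1.10, -0.67 and -0.35 in tea livers, against 0.26, -0.50 and 0.24 in control livers. The groups overlapped in each, through tea replicate 3 and control replicate 1 for Cyp7a1 and through tea replicate 3 and control replicate 2 for Cyp8b1.

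**Figure D2:**
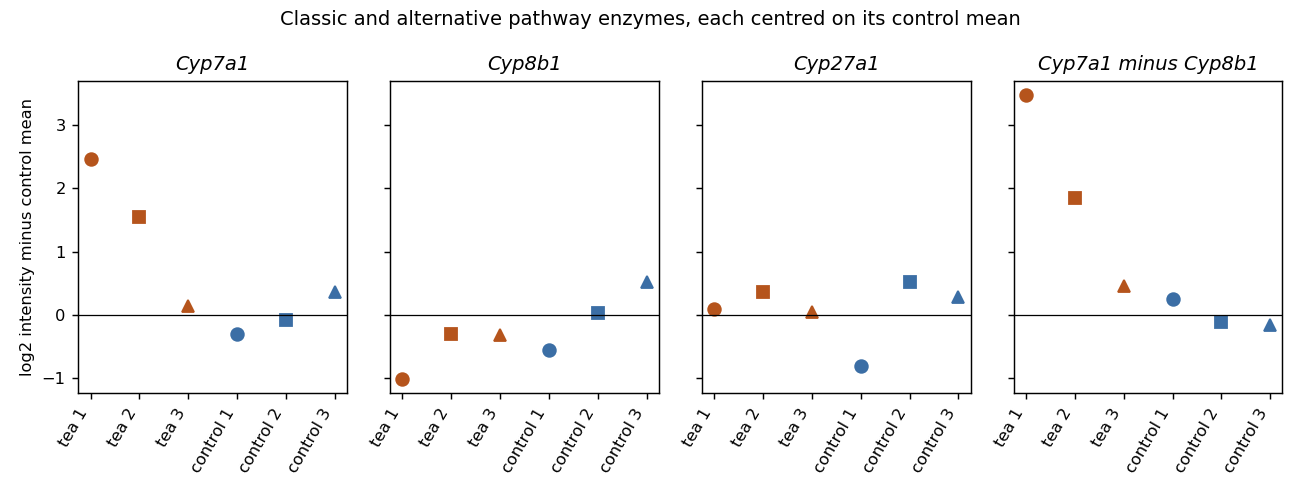
Log2 intensity minus the control mean of the same gene for Cyp7a1, Cyp8b1 and Cyp27a1, and the difference of the Cyp7a1 and Cyp8b1 values, in each of the 3 tea and 3 control arrays. The rightmost panel runs from 0.46 to 3.47 in tea and from -0.15 to 0.26 in control, while the Cyp27a1 points of tea lie among those of control.

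The enzymes that modify the ring also differed in sign. Hsd3b7, a dehydrogenase that oxidises the ring hydroxyl of the intermediates, had levels of 8.81, 9.25 and 9.65 in tea livers, against 8.42, 8.75 and 9.07 in control livers. The groups overlapped through tea replicate 1 and control replicate 3. The difference was 0.49 ± 0.34 (SE, 95% interval -0.25 to 1.23; limma, adjusted p = 0.949). Its sign was the same with any array left out, with values from 0.28 to 0.70.

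Akr1d1, the 5-beta-reductase that bends the steroid ring into its bile acid shape, had levels of 11.92, 11.80 and 11.15 in tea livers, against 11.73, 12.73 and 12.43 in control livers. As with Cyp8b1, all tea livers lay below control replicates 2 and 3, and control replicate 1 lay among the tea livers. The difference was -0.67 ± 0.36 (SE, 95% interval -1.48 to 0.13; limma, adjusted p = 0.949). Without control replicate 1 it was -0.95 ± 0.34, the groups did not overlap and the adjusted p was 0.826. Without tea replicate 3 it was -0.44 and without control replicate 2 it was -0.46. With control replicate 1 left out, Cyp8b1 and Akr1d1 were the 2 of 8 enzymes whose tea arrays all lay below both controls, where 11.1% of all probes did. In that fit limma took 3 of the 8 at an unadjusted p under 0.05, Cyp7a1, Cyp8b1 and Akr1d1, where 5.63% of all probes were taken. None of the 8 passed the correction, where 6 probes or 0.0227% did.

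**Figure D3:**
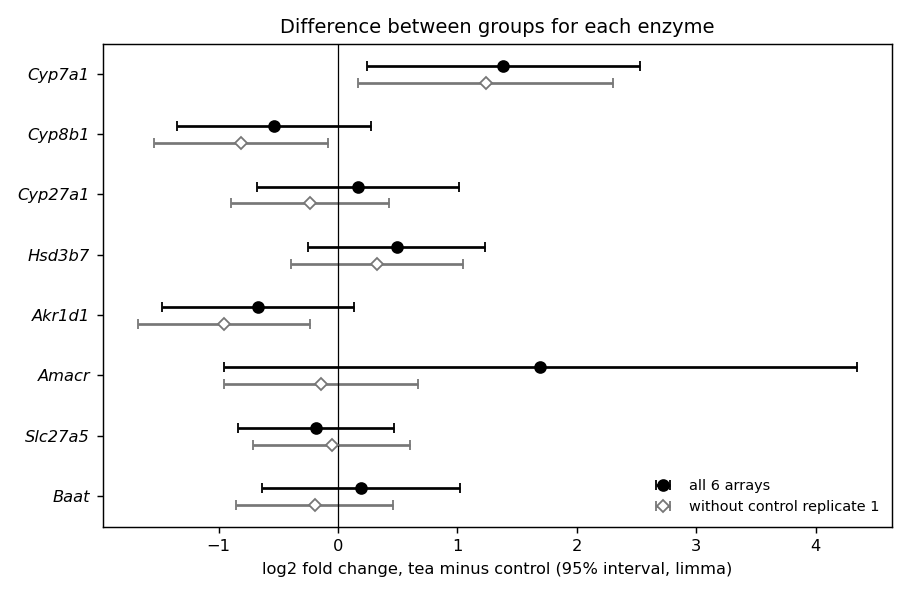
Log2 fold change, tea minus control, with limma's 95% interval for each enzyme, from all 6 arrays (filled circles) and without control replicate 1 (open diamonds). Amacr is at 1.69 with all arrays and at -0.14 without control replicate 1, while Cyp7a1 is at 1.38 and 1.24.

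Of the side chain and conjugation enzymes, Amacr had the largest difference of means and the least certain one. Amacr is the racemase that prepares side chain intermediates, and branched fatty acids, for peroxisomal oxidation. Its levels were 13.04, 13.46 and 12.23 in tea livers, against 7.56, 12.75 and 13.35 in control livers. Control replicate 1 was 42.6-fold below the mean of the other 5 arrays, whose levels ran from 12.23 to 13.46. Over all 26419 probes, 2 lay at least that far below the other 5 arrays in control replicate 1, Amacr included, and in each of the other 5 arrays 0 probes did. The difference between groups was 1.69 ± 1.20 (SE, 95% interval -0.96 to 4.34; limma, adjusted p = 0.949). Without control replicate 1 it was -0.14 ± 0.38, so its direction rested on that array.

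Slc27a5, the bile acid CoA ligase, had levels of 12.18, 12.24 and 12.11 in tea livers, against 12.62, 12.41 and 12.06 in control livers. It varied least of the 8, with a pooled SD of 0.21, and 8.85% of named genes had a smaller one. The difference was -0.18 ± 0.30 (SE, 95% interval -0.84 to 0.47; limma, adjusted p = 0.954), which leaves room for a fold from 0.56 to 1.39. Control replicate 1 was the highest array, and without it the difference was -0.055 ± 0.31.

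Baat, the transferase that joins bile acids to taurine or glycine, had levels of 12.85, 12.57 and 12.48 in tea livers, against 11.66, 12.85 and 12.80 in control livers. Control replicate 1 was the lowest array and control replicate 2 the highest. The difference was 0.19 ± 0.37 (SE, 95% interval -0.63 to 1.02; limma, adjusted p = 0.960), and it was -0.20 ± 0.31 without control replicate 1 and 0.087 without tea replicate 1.

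Control replicate 1 was thus the lowest array for 5 of the 8 enzymes, Cyp7a1, Cyp27a1, Hsd3b7, Amacr and Baat, and the highest for Slc27a5. It lay 1.07 below the mean of the other 5 arrays for Cyp27a1 and 1.05 below for Baat on the log2 scale. The summed hepatocyte markers of that array, 188239, lay within the range of the other 5, and its summed Kupffer and macrophage markers, 780, lay between the 711 of tea replicate 3 and the 1736 of tea replicate 1. It was the lowest array for the summed stellate markers (4 of 5 measured), at 809 against 977 to 1383 in the others. The same held for the summed endothelial markers (2 of 4 measured), at 739 against 913 to 1371. Single markers of these lists did not all go this way. Col3a1, Rgs5 and Pecam1 were lowest in that array, at 8.42, 7.67 and 7.30. Lrat was highest there, at 7.08, and Des and Kdr, at 6.99 and 9.18, were not lowest. The median marker of that array differed from the mean of the other 5 by -0.83 for Kupffer cells and macrophages, -0.76 for endothelium, -0.34 for stellate cells, 0.56 for cholangiocytes and -0.082 for hepatocytes on the log2 scale. What set this array apart was not tested.

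**Figure D4:**
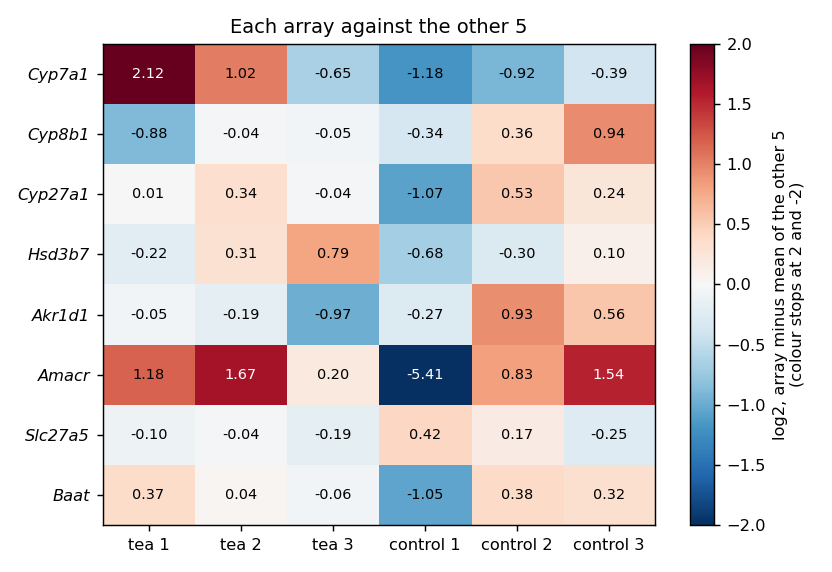
Log2 level of each enzyme in each array minus the mean of the other 5 arrays, with tea arrays at left and control arrays at right, red for higher and blue for lower. The control replicate 1 column is negative for 7 of the 8 enzymes and reaches -5.41 for Amacr, and tea replicate 1 is at 2.12 for Cyp7a1.

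No promoter sequence was available for Cyp7a1 and Akr1d1, so neither was searched. The 250 bases before the annotated start were available for the other 6 of the 8 enzymes, from RefSeq on the GRCr8 assembly. They were searched on both strands for AGGTCA, the hexamer to which many nuclear receptors of liver bind, including those that act on bile acid genes. Cyp27a1 and Amacr held it, 2 of 6, and 14.1% of 33469 promoters of the same length did. Cyp8b1, Hsd3b7, Slc27a5 and Baat held 0 matches. The sequences that hold it are shown, with the hexamer, on either strand, in capitals. The Cyp27a1 sequence is chr9:83713282-83713531 on the plus strand and holds the hexamer 2 times, starting 236 bases before the start on the minus strand and 115 bases before it on the plus strand. The Amacr sequence is chr2:61673085-61673334 on the plus strand and holds it 201 bases before the start.
Cyp27a1: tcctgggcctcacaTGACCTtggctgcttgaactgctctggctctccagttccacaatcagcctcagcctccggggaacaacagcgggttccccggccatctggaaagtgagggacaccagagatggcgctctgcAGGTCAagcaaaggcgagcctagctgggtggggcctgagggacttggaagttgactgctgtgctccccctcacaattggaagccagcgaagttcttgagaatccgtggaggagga
Amacr: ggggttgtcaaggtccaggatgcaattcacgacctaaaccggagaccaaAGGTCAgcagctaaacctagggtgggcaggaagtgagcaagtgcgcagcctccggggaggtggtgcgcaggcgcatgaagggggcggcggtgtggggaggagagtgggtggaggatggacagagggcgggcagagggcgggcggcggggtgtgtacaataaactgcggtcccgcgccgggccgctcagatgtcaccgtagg
The first Cyp27a1 match is part of TGACCTTG, the minus strand form of CAAGGTCA, the extended element known for Nr5a2. CAAGGTCA or CAAGGCCA was in 1 of the 6 promoters and in 3.17% of all. TTATGTAA or TTATGCAA, the D-box bound by the clock factor Dbp, was in 0 of the 6 windows and in 1.6% of all, and CACGTG, the E-box bound by clock activators, in 0 of the 6 and in 5.59% of all. A match is a description of the letters and no match says only that they are not in this window. None of these counts covers the Cyp7a1 promoter.

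Genes of the wider pathway came from 4 lists. In the list of further enzymes, 13 of 19 were measured, 2 with higher and 11 with lower means with tea, and 0 passed over all probes (limma). At an unadjusted p under 0.05 limma took 2, Por and Acnat2, where 4.23% of all probes were taken. The median log2 difference was -0.16, and -0.23 without control replicate 1. Por, which supplies electrons to the microsomal P450 enzymes Cyp7a1 and Cyp8b1, had levels of 9.55, 9.90 and 9.56 in tea livers, against 5.72, 8.47 and 8.52 in control livers. All tea livers lay above all controls, as for 4.87% of all probes. The difference was 2.10 ± 0.64, or 1.17 ± 0.31 without control replicate 1, whose level was close to its random control probe. Acnat2, a relative of Baat whose mouse relative Acnat1 joins fatty acids to taurine, differed by -0.84 ± 0.31. Hsd11b1, which regenerates active glucocorticoid and also acts on oxidised bile acids, differed by -0.79 ± 0.37. Dropping control replicate 1 widened the Hsd11b1 difference to -1.14 ± 0.32 (limma, adjusted p = 0.615), and the groups then did not overlap. Dropping control replicate 3 instead narrowed it to -0.47.

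In the list of regulators, 18 of 21 were measured, 11 higher and 7 lower, with a median of 0.16 (0.012 without control replicate 1), and 0 passed (limma; 0 at an unadjusted p under 0.05). Nr1h4, the bile acid receptor FXR, had levels of 11.31, 10.91 and 10.05 in tea livers, against 11.47, 11.29 and 11.44 in control livers. Tea replicate 3 was lowest, and the difference was -0.64 ± 0.36, or -0.29 without that array. Rxra, the common partner of these nuclear receptors, differed by -0.79 ± 0.40, or -0.36 without control replicate 1. Ppargc1a, a coactivator known to raise Cyp7a1, differed by 0.77 ± 0.39, or 0.40 without tea replicate 1 and 0.96 ± 0.38 without control replicate 1.

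The repressor through which FXR acts on Cyp7a1 and Cyp8b1, and the receptor that drives both, were looked at beyond the rule for named genes, after values were seen. Nr0b2, the repressor SHP, had levels of 6.55, 6.09 and 5.99 in tea livers, against 6.47, 5.86 and 5.83 in control livers. Its means, 6.21 with tea and 6.06 in control, lay below the median level of all probes, 6.47, so this dim probe says little about SHP. Nr5a2, or LRH-1, had levels of 11.23, 11.19 and 11.20 in tea livers, against 11.21, 11.36 and 11.19 in control livers. The groups overlapped for each.

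In the list of clock factors that act on Cyp7a1 or its regulators, 11 of 14 were measured, 8 higher and 3 lower, with a median of 0.58. Of these 1 passed over all probes, where 0.00379% of all probes did, and 6 had an unadjusted p under 0.05, where 4.23% did (limma). The groups did not overlap, with tea higher, for 5 of the 11, where 4.87% of all probes were so. This list was chosen with earlier results of these data known, so its counts are a description and no test of clock factors. Dbp, an activator of the Cyp7a1 promoter in rat, had levels of 9.65, 10.58 and 10.53 in tea livers, against 5.90, 6.59 and 5.42 in control livers (limma, adjusted p = 0.0142). It was the probe that passed. Its levels in control replicates 1 and 3 lay near that of the random control, which leaves the fold imprecise, while control replicate 2 lay higher at 6.59. Within the tea group Dbp was lowest in replicate 1, where Cyp7a1 was highest, and Dbp in that array still lay above every control. A link between the levels of Dbp and Cyp7a1 was not tested. Per3, a period gene, and Bhlhe41, a repressor of the clock, differed by 1.22 ± 0.31 and 1.14 ± 0.30. The time of day at which tissue was taken is not given in the sources used here.

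In the list of bile acid transporters, 12 of 15 were measured, 5 higher and 7 lower, with a median of -0.13 (-0.34 without control replicate 1), and 0 passed (limma; 0 at an unadjusted p under 0.05). The list also held Ephx1, Abcb4, Abcg5 and Abcg8, whose main function is not the transport of bile acids, with differences of 0.82, 0.46, -0.027 and 0.60. The counts therefore do not describe bile acid carriers alone. The groups did not overlap, with tea lower, for 1 of the 12, where 5.54% of all probes were so. This was Abcb11, the pump that exports bile acids into bile, with levels of 11.98, 12.14 and 11.36 in tea livers, against 12.16, 12.53 and 12.57 in control livers. The difference was -0.59 ± 0.32, or -0.36 without tea replicate 3 and -0.72 ± 0.33 without control replicate 1. Abcg8, part of the sterol exporter, differed by 0.60 ± 0.38, or 0.26 without control replicate 1, and Abcc4, an exporter of the sinusoidal membrane, by 0.50 ± 0.38, or 0.18 without that array.

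**Figure D5:**
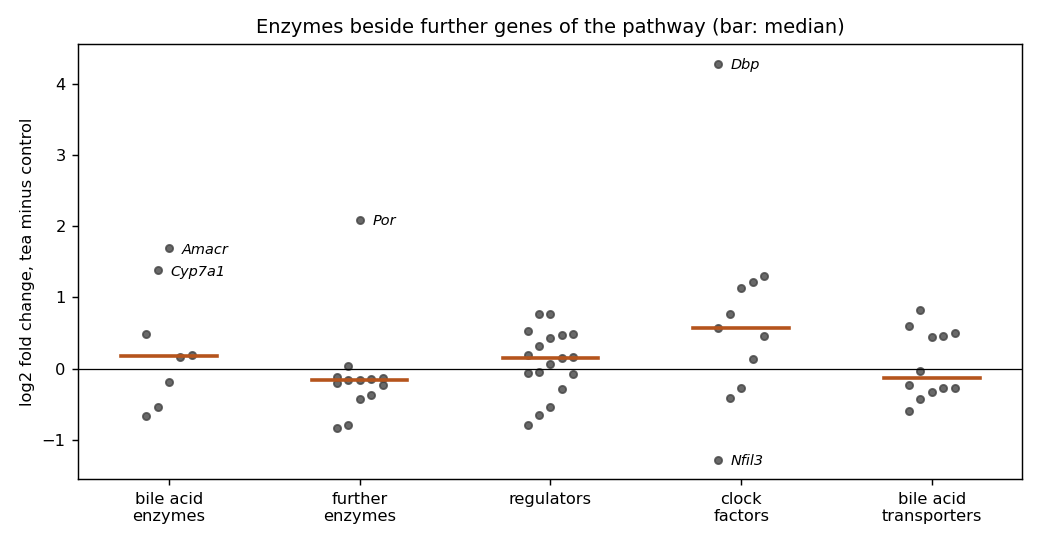
Log2 fold change, tea minus control, of each measured gene of the bile acid enzymes and the 4 further lists, with a bar at each list's median. The medians are 0.18, -0.16, 0.16, 0.58 and -0.13 from left to right, and Dbp at 4.28 is the gene that passed over all probes.

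For the P450 enzymes, the genes with the most similar profile over the 6 arrays were taken from those of at least median level and an SD of at least 0.5, by Pearson correlation as a description. For Cyp7a1 they were Ctps2 (0.962), Spata7 (0.956) and Hpgds (0.953) among 1962 genes. Each of them was highest in tea replicate 1 and lowest in tea replicate 3, where Cyp7a1 was highest in tea replicate 1 and lowest in control replicate 1. For Cyp8b1 they were Dnase2b (0.950), Acy3 (0.946) and Tcirg1 (0.943), each lowest in tea replicate 1 and highest in control replicate 3. For Cyp27a1 they were Phospho2 (0.993), Cmbl (0.990) and Parp1 (0.990) among 1963 genes, each lowest in control replicate 1. Without control replicate 1, over 5 arrays, these last 3 correlations were 0.949, 0.979 and 0.959.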

How the data were processed

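Liver RNA carried the Cy3 label, and the arrays were made by NimbleGen, per the labels' protocols. The authors deposited 1 linear intensity per probe and array. The submitters' processing notes name RMA, with no version or background setting. RMA equalises the arrays, so differences in total signal are no longer visible. From the deposited values log2 was taken and no scaling was added. The 1 random control row of 26420 was removed, and dim probes were kept. Transcript identifiers were looked up in RefSeq's GRCr8 table, which gave 1 symbol to 9747 probes, several to 0 and none to 16672, and the probe with the highest mean stood for a gene. Each measured enzyme had 1 probe.

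The groups were compared in R 4.3.3 with limma 3.58.1, by lmFit and eBayes in a two-sided test at 0.05, with p-values adjusted by Benjamini-Hochberg over 26419 probes. The fits were tested on simulated data with equal, independent noise for every probe and no array set apart. The real arrays differ from that setting, so it does not show how the fits handle control replicate 1. The number of arrays limits the precision. Outside the enzymes, the 3 genes of each list with the smallest p were named, with the 3 genes most like Cyp7a1, Cyp8b1 and Cyp27a1. The enzymes and the lists were chosen with earlier results of these data known, so no p is adjusted over a list. Alternatives were centring on array medians, quantile normalization, a filter at the median level, eBayes with trend and robust, array weights, each probe's own variance (Welch), the replicate number as a block, named probes alone, and leaving out each array.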

Additional observations from a re-analysis of the deposited data

How the results depend on the processing

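The count of enzymes past the correction was 0 under every alternative run, with the smallest adjusted p of 0.114 under array weights. At an unadjusted p under 0.05 the count lay between 0 and 3. Over all probes, 1 passed with all arrays, 27 with array weights, 0 with Welch's test and 0 to 6 with an array left out. With the replicate number as a block 0 passed. The labels do not say that the numbers pair the samples. Deviations from the group means of same-numbered arrays correlated at -0.22, 0.013 and -0.25, and no array correlated best with its own number. With 3 arrays in each group and 1 that stood apart, these values cannot exclude a pairing. Array weights, which gave control replicate 1 the lowest weight (0.25), turned Cyp27a1 to -0.046 and Baat to -0.15 on the log2 scale. With an array left out, Cyp27a1 ran from -0.24 to 0.43, Amacr from -0.14 to 2.76 and Baat from -0.20 to 0.40, each turning sign without control replicate 1. The mean of Cyp7a1 and Cyp8b1 minus Cyp27a1 ran from -0.020 to 0.45. The other 5 enzymes kept their direction under all alternatives, Cyp7a1 from 0.85 to 2.002 with an array left out. Since each enzyme had 1 probe, averaging probes changed nothing.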
